A study of Mus musculus with 6 samples.

Results

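The genes described here are the nuclear-encoded subunits of the mitochondrial respiratory chain in mouse embryonic stem cells (ESCs), with and without Hnrnpf. They were chosen by symbol, from the families Nduf, Sdh, Uqcr, Cox4 to Cox8 and Atp5, where the mean level over the 6 libraries was at least 1 FPKM (a read level corrected for transcript length and sequencing depth). Of 25170 symbols, 88 matched the families and 83 passed the level: 38 of complex I, 4 of complex II, 8 of complex III, 17 of complex IV and 16 of complex V. The 5 that did not pass were Atp5g2, Cox6a2, Cox8b, Ndufa11b and Ndufs5. RNA was sequenced from the E14 line, an established mouse ESC line, either wild type or Hnrnpf knockout, in serum medium with leukemia inhibitory factor (LIF, the cytokine that maintains self-renewal) or 4 days after LIF was taken away. The 6 libraries form 4 groups. Each medium has 1 library of wild type cells, with no replicate, and 2 of Hnrnpf knockout cells. The knockout libraries are called knockout 1 and knockout 2 by their label. The labels give neither the way the knockout was made nor the deleted part. They leave unsaid whether cultures were separate, and whether knockout 1 is 1 clone sampled in both media, so the spread behind each p-value is that of these libraries alone and may be technical. The comparisons ask how Hnrnpf loss changes gene expression in pluripotent cells and in cells that are leaving pluripotency.

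The respiratory chain sits in the inner mitochondrial membrane. Complex I (NADH dehydrogenase) and complex II (succinate dehydrogenase) pass electrons to ubiquinone, complex III (the cytochrome bc1 complex) passes them on to cytochrome c, complex IV (cytochrome c oxidase) gives them to oxygen, and complex V (ATP synthase) uses the resulting proton gradient to make ATP. Most subunits are encoded in the nucleus and are joined in the mitochondrion with a few encoded in mitochondrial DNA. Pluripotent mouse cells draw on both glycolysis and respiration, and several subunits have a common form and a form typical of muscle, lung or testis. The 13 subunits encoded in mitochondrial DNA are not analysed here.

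Hnrnpf itself, an RNA-binding splicing factor, was listed at 342 FPKM in LIF-grown and 335 FPKM in LIF-deprived wild type cells. It was listed at 98.7 and 37.1 FPKM in knockout 1 and 2 with LIF and at 95.2 and 27.8 FPKM after LIF removal. All 4 knockout libraries were below both wild type libraries. Pou5f1, the defining pluripotency factor, lay between 587 and 1145 FPKM in the 6 libraries, while the fibroblast genes Col1a1, Col1a2, Col3a1, Postn, Lum and Dcn were at or below 1.24 FPKM everywhere. Of the feeder cell markers, Thy1 alone exceeded this, at 3.16 to 7.01 FPKM. Summed FPKM ran from 456155 to 556318 over the libraries and was highest in the LIF-grown wild type library. In bulk RNA, fewer cells of a type and less RNA per cell cannot be told apart. The total of the 83 subunit genes made up 3.29% of all FPKM in the LIF-grown wild type library, 2.95% and 2.82% in knockout 1 and 2 with LIF, 2.83% in the LIF-deprived wild type library and 2.71% and 2.79% in knockout 1 and 2 after LIF removal. The share was thus highest in the single wild type library with LIF, and the other 5 libraries lay close together.

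Many subunit genes have processed pseudogenes, copies of the spliced transcript elsewhere in the genome, and reads from shared stretches can be given to either locus. Shared stretches were sought on either strand, and the other gene was not always a pseudogene, as with Ndufb6 and Smim27 (34.1%). Of 84 symbols with a protein-coding transcript in GENCODE M21, 37 shared no stretch of 50 bases with a transcript of another gene, and 5 shared at least 50% of such stretches: Atp5g2 with 100.0%, Atp5l with 84.8%, Ndufa12 with 53.8%, Cox7c with 53.0% and Atp5h with 50.5%. Of these, Atp5g2, Atp5l and Cox7c had a mean under 10 FPKM. The clearest case was Ndufs5 (chromosome 4, 123712710 to 123718202, GRCm38), a structural subunit of complex I, which was listed at a mean of 0.000353 FPKM while Ndufs5-ps (chromosome 16, 42955580 to 42956079) was listed at 148 FPKM. The coding sequences of this pair were identical in 316 of 318 bases (99.4%), and those of Cox7c (chromosome 13, 86044816 to 86046904) and Cox7c-ps1 (chromosome 17, 25901808 to 25902153) in 187 of 189 bases (98.9%). The first 90 bases from the start codon are shown for both pairs, because they show how few bases separate a subunit from its copy. Capitals mark the base that differs within a pair.
Ndufs5: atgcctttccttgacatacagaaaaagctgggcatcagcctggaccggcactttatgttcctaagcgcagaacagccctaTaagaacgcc
Ndufs5-ps: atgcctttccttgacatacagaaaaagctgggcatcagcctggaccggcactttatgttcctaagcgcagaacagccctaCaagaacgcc
Cox7c: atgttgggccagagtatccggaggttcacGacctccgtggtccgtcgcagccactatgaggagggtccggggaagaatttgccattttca
Cox7c-ps1: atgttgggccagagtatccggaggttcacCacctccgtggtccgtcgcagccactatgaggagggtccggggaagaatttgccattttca
Within these 90 bases each pair differed at 1 base. Levels of Ndufs5, Ndufs5-ps, Cox7c, Cox7c-ps1, Ndufb4, Ndufb4c, Atp5l, Atp5g2, Ndufa12 and Atp5h are therefore uncertain.

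Levels spanned a wide range within each complex. Complex V was the most abundant, with a median over its genes of 259 FPKM and a maximum of 1195 FPKM for Atp5b, the catalytic beta subunit. The medians were 152 FPKM in complex III, 130 FPKM in complex IV, 108 FPKM in complex II and 94.15 FPKM in complex I, on a scale that is already per length. The highest gene was Cox4i1 in complex IV at 769 FPKM, Uqcr10 in complex III at 623 FPKM, Ndufa4 in the Nduf family at 423 FPKM and Sdhc in complex II at 142 FPKM. Complex II was the most even, from 86.7 to 142 FPKM. The lowest member was Cox8c at 1.04 FPKM, and the lowest of the Nduf family was Ndufb4 at 2.28 FPKM.

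**Figure D1:**
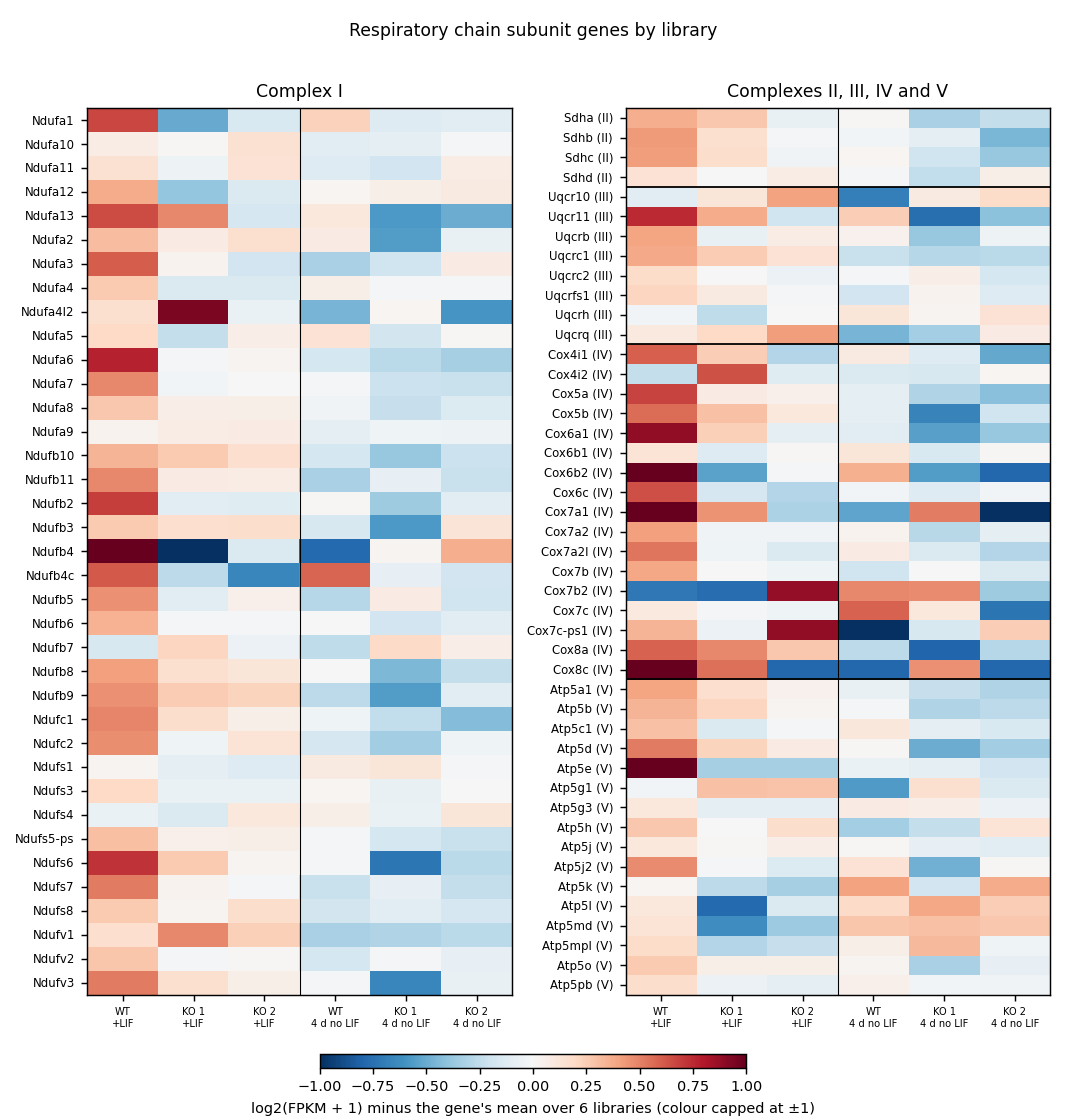
Level of each subunit gene in each library as log2(FPKM + 1) minus the gene's mean over the 6 libraries, with rows grouped by complex, red above and blue below the mean, and colour capped at 1 in either direction (1 of the 83 genes is not shown). The first column, the LIF-grown wild type library, is mostly red and holds the highest value for 64 of the 83 genes, while Atp5md and Uqcr10 are among those highest elsewhere.

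Relative to the LIF-grown wild type library, the median log2(FPKM + 1) difference of the 83 genes was -0.27 and -0.32 in knockout 1 and 2 with LIF, -0.44 in the LIF-deprived wild type library and -0.55 and -0.50 in knockout 1 and 2 after LIF removal. The wild type library with LIF held the highest value for 64 of the 83 genes (77.1%), against 26.4% of all 11785 tested genes and 31.6% of tested genes averaging at least 20 FPKM. The lowest value lay in knockout 1 after LIF removal for 28 genes, in knockout 2 after LIF removal for 19 and in the LIF-deprived wild type library for 16. Most of the differences below therefore involve this 1 library, which has no replicate. The median absolute log2 difference between knockout 1 and knockout 2 was 0.13 with LIF and 0.17 after LIF removal, near the values of 0.15 and 0.17 for all tested genes of at least 20 FPKM.

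After LIF removal, 22 of the 83 subunit genes fell and 1 rose over both genotypes, in a limma fit with genotype and medium as added terms (adjusted p under 0.05, over all tested genes). This is 26.5% lower, against 12.7% of all tested genes lower and 8.73% higher (21.4% in either direction), and against 16.9% lower among tested genes of at least 20 FPKM. The median difference was -0.27 on the log2(FPKM + 1) scale, against -0.03 for all tested genes and -0.08 for those of at least 20 FPKM. The difference was negative for 70 genes (84.3%), against 53.8% of all tested genes and 60.9% of those of at least 20 FPKM. The 22 comprised 10 of complex I, 1 of complex II, 3 of complex III, 5 of complex IV and 3 of complex V. The 3 libraries without LIF lay below all 3 with LIF for 30 genes (36.1%, against 16.83% of all tested genes) and above them for 3, against 14.87% of all tested genes. The count rested on the wild type libraries: without the LIF-grown wild type library or without the LIF-deprived one it was 4 each, since the comparison then lies within knockout cells, and without knockout 1 with LIF it was 14. With quantile normalization 3 rose and 13 fell, with a median of -0.15. Cell state markers moved with the medium. All 6 pluripotency markers, Pou5f1, Sox2, Nanog, Zfp42, Esrrb and Dppa5a, fell after LIF removal, and their summed level was 6089 to 8774 FPKM with LIF and 2659 to 3612 FPKM without. Of 6 tested lineage markers, T, Eomes and Nes rose, and the sum of the 8 listed was 13.1 to 16.1 FPKM with LIF and 29 to 47 FPKM without. The part of these changes in the subunits' values was not tested. The calls of Atp5d, Cox8a and Ndufv1 held in all 13 alternative fits.

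Without Hnrnpf, 8 subunit genes were lower and 1 was higher over both media in the same fit. The 9.64% lower stood against 4.67% of all tested genes lower and 5.79% higher (10.5% in either direction), and against 7.27% lower among tested genes of at least 20 FPKM. The lower genes were Ndufb4c, Ndufa1, Uqcr11, Cox6b2, Cox7a2l, Cox6a1, Cox5a and Atp5d, and the higher gene was Uqcr10. The median difference was -0.23 against -0.03 for all tested genes and -0.07 for those of at least 20 FPKM. The difference was negative for 70 genes (84.3%), against 54.4% of all tested genes and 60.7% of those of at least 20 FPKM. All 4 knockout libraries lay below both wild type libraries for 17 genes (20.5%, against 12.99% of all tested genes) and above them for 2, against 11.93% of all tested genes. Of the 9, Atp5d, Cox5a, Cox6a1, Cox6b2 and Uqcr11 were also lower after LIF removal. None of the 9 calls held in all alternatives. No subunit gene was called without either wild type library, 1 (Cox6b2) was called without knockout 2 with LIF, and 5 were called without knockout 1 with LIF and 5 without knockout 1 after LIF removal. With quantile normalization 2 were higher and 3 lower, with a median of -0.14.

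**Figure D2:**
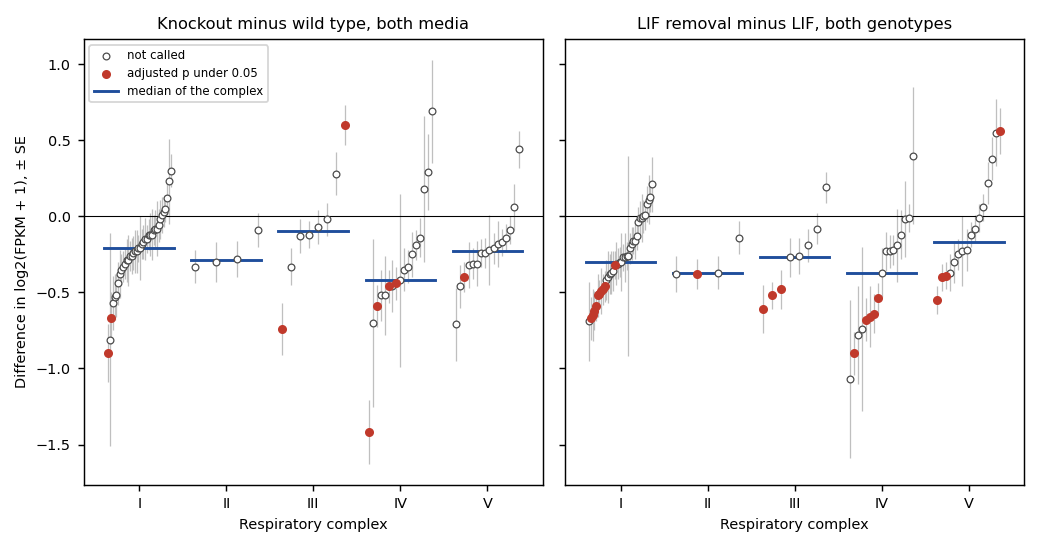
Knockout effect over both media and LIF removal effect over both genotypes for each subunit gene by complex, as log2(FPKM + 1) differences from limma; filled points are called genes, vertical bars show the SE and horizontal lines the median of each complex. Genes of all complexes lie mostly below 0 in both panels, with medians of -0.23 and -0.27.

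In the fit of 4 groups, no subunit gene was called for the knockout effect with LIF (30, or 36.1%, at an unadjusted p under 0.05, against 16.7% of all tested genes, median -0.29) or after LIF removal (8, or 9.64%, against 15.5%, median -0.08). Few genes of any kind passed there, 0.0424% and 0.0594% of all tested genes. The LIF removal effect within knockout cells was called for 4 genes, against 6.92% of all tested genes (3.05% higher and 3.88% lower): Ndufv1, Cox8a and Atp5d fell and Atp5md rose, with a median of -0.17 over the 83. Leaving out 1 library at a time left 0 calls without knockout 1 with LIF or knockout 1 after LIF removal, 1 without knockout 2 after LIF removal and 7 without knockout 2 with LIF, and quantile normalization left 1 higher gene and 0 lower. In wild type cells, where 1 library stood against 1 and no test was made, 6 genes were lower and 1 higher by at least 1 on the log2 scale, against 8.36% of all tested genes in either direction (4.56% lower and 3.80% higher), with a median of -0.44. The difference between the responses of knockout and wild type cells was called for no subunit gene and no tested gene at all (0%). Its lowest adjusted p among the subunits was 1, 11 (13.3%) had an unadjusted p under 0.05, against 2.89% of all tested genes, and the median was 0.15. The comparisons with LIF and in wild type cells share the LIF-grown wild type library.

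In complex I, the 7 core subunits tested here carry the flavin, the iron-sulfur clusters and the electron path. Another 29 genes were counted as accessory subunits. They include Ndufa4, placed here by its symbol though now counted to complex IV, and its paralog Ndufa4l2. After LIF removal 2 core genes and 8 accessory genes fell, with medians of -0.31 and -0.30. Ndufv1, the flavin-binding core subunit where NADH is oxidised (chromosome 19, 4007384 to 4012806), read 103 FPKM in wild type and 128 and 108 FPKM in knockout 1 and 2 with LIF, and 73.0, 73.9 and 75.8 FPKM in the same order after LIF removal. All libraries without LIF were below all with LIF, and the knockout libraries were not below the wild type. Its LIF removal effect was -0.59 (SE 0.10, limma adjusted p = 0.00732) and its knockout effect was 0.12 (SE 0.11, adjusted p = 0.546). Ndufb10, an accessory subunit of the membrane arm, read 175, 166 and 155 FPKM with LIF and 122, 106 and 119 FPKM without, in the order wild type, knockout 1 and knockout 2 that is kept from here on. Its media did not overlap, with a LIF removal effect of -0.51 (SE 0.09, limma adjusted p = 0.00861). Ndufc1, a small membrane subunit, read 302, 243 and 224 FPKM with LIF and 208, 181 and 159 FPKM without, again with no overlap between media (-0.48, SE 0.10, limma adjusted p = 0.0117). Ndufs6, an accessory subunit of the matrix arm that binds zinc, read 161, 117 and 99.1 FPKM with LIF and 95.9, 58.7 and 80.8 FPKM without. It fell after LIF removal (-0.67, SE 0.14, limma adjusted p = 0.0129), and its knockout effect of -0.52 (SE 0.14) had an adjusted p of 0.0567. Among the other genes of the complex that fell were Ndufa6, Ndufa13, Ndufb8, Ndufb9 and Ndufv3, with effects between -0.65 and -0.46.

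In the knockout comparison the 2 lower genes of complex I were Ndufa1 and Ndufb4c, and no core gene was called. Ndufa1, a membrane arm subunit encoded on the X chromosome, read 81.6, 35.6 and 45.8 FPKM with LIF and 59.9, 46.6 and 47.1 FPKM without. Both wild type libraries were above all 4 knockout libraries, and the effect was -0.67 (SE 0.17, limma adjusted p = 0.0428). Ndufb4c, annotated as a processed pseudogene on chromosome 15, read 5.04, 2.29 and 1.51 FPKM with LIF and 4.91, 2.73 and 2.45 FPKM without. The genotypes did not overlap (-0.90, SE 0.19, limma adjusted p = 0.0268), but 37.0% of the 50-base stretches of Ndufb4 lie in Ndufb4c, and Ndufb4 itself read 8.14, 0 and 1.28 FPKM with LIF and 0.466, 1.56 and 2.23 FPKM without. Ndufb4 had the widest span of all 83 genes, 3.19 on the log2 scale, with no order by genotype or medium. Ndufb2, a small membrane subunit, read 53.7, 30.5 and 30.2 FPKM with LIF and 33.2, 25.5 and 30.3 FPKM without. Its 2 wild type libraries were both above the knockout libraries, but the effect of -0.53 (SE 0.15) missed the threshold (limma adjusted p = 0.0633). Ndufa9, an accessory subunit near the quinone site, had the smallest span, 0.18, from 75.3 to 85.6 FPKM. Ndufs1 and Ndufs4, a core and an accessory subunit of the matrix arm, were also flat, at 57.7 to 68.9 and 32.8 to 39.8 FPKM, with adjusted p above the threshold in both comparisons.

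In complex II, the 4 succinate dehydrogenase subunits also serve the citric acid cycle. Sdha, the flavoprotein, read 110, 103 and 80.8 FPKM with LIF and 86.1, 67.9 and 72.0 FPKM without. Sdhb, the iron-sulfur subunit, read 140, 116 and 103 FPKM with LIF and 102, 97.6 and 75.5 FPKM without, and Sdhc, a membrane anchor, read 187, 158 and 136 FPKM with LIF and 141, 121 and 107 FPKM without. These 3 were highest in wild type with LIF and lower in the knockout than in the wild type of the same medium. Sdhd, the other anchor, read 121, 109 and 115 FPKM with LIF and 108, 91.9 and 114 FPKM without, with overlap in both comparisons. Only Sdhc passed for LIF removal (-0.38, SE 0.10, limma adjusted p = 0.0343). Sdha and Sdhb had effects of similar size, -0.37 (SE 0.11, adjusted p = 0.0521) and -0.38 (SE 0.12, adjusted p = 0.0572). No gene of complex II was called in the knockout comparison, where the effects ran from -0.33 to -0.09.

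In complex III, Uqcrc1, a core protein on the matrix side, read 273, 250 and 231 FPKM with LIF and 179, 172 and 173 FPKM without. The media did not overlap and the 3 libraries without LIF were nearly equal, with an effect of -0.52 (SE 0.09, limma adjusted p = 0.00717). Uqcr11, a small subunit, read 206, 159 and 107 FPKM with LIF and 146, 72.5 and 91.9 FPKM without. It was lower in the knockout (-0.74, SE 0.17, limma adjusted p = 0.0333) and after LIF removal (-0.61, SE 0.16, limma adjusted p = 0.0311), although the libraries of the groups overlapped in both comparisons. Uqcr10, another small subunit, read 562, 660 and 803 FPKM with LIF and 378, 648 and 690 FPKM without. All knockout libraries were above both wild type libraries, the reverse of most members, with an effect of 0.60 (SE 0.13, limma adjusted p = 0.0315). Uqcrq, a small subunit named for ubiquinone binding, read 96.6, 104 and 121 FPKM with LIF and 65.2, 71.2 and 95.4 FPKM without, and fell after LIF removal (-0.48, SE 0.13, limma adjusted p = 0.0346) while its knockout effect was 0.28 (SE 0.14, adjusted p = 0.243). Uqcrb read 160, 115 and 128 FPKM with LIF and 125, 93.1 and 117 FPKM without and passed in neither comparison. The core protein Uqcrc2, the Rieske protein Uqcrfs1 and the hinge protein Uqcrh passed in neither comparison either, with LIF removal effects of -0.08, -0.19 and 0.19.

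Complex IV had the largest median differences of the complexes with more than 4 genes, -0.42 for the knockout and -0.37 for LIF removal, with 4 and 5 genes lower and 0 higher. Its summed level was 4799 FPKM in wild type with LIF, 3507 and 3041 FPKM in the knockout libraries with LIF, 3138 FPKM in wild type after LIF removal and 2596 and 2607 FPKM in the knockout libraries after LIF removal. The wild type sum was above both knockout sums in each medium. This held for complexes I, II and V too, but not for complex III. There the wild type sum was 1941 FPKM against 1852 and 1991 FPKM in knockout 1 and 2 with LIF. After LIF removal it was 1511 FPKM against 1681 and 1785 FPKM. These are raw sums, and summed FPKM over all genes was also higher in wild type in each medium. As a share of all FPKM, complex I held 0.769% in LIF-deprived wild type, against 0.755% and 0.785% in knockout 1 and 2. For complexes II, IV and V the wild type share was above both knockout shares in each medium. Cox6b2, the testis form of subunit 6b (chromosome 7, 4751792 to 4753094), had the largest knockout effect of any member and the lowest p. It read 96.3, 22.1 and 32.2 FPKM with LIF and 41.9, 21.7 and 18.5 FPKM without. All 4 knockout libraries were below both wild type libraries, with an effect of -1.42 (SE 0.21, limma adjusted p = 0.0111), and its transcript shared no 50-base stretch with another gene. It kept its call in 10 of 12 alternatives, losing it without either wild type library, with adjusted p from 0.00877 to 0.152. For LIF removal, its effect was -0.66 (SE 0.20) at an adjusted p that rounds to 0.05. Its widely expressed counterpart Cox6b1 read 482, 402 and 442 FPKM with LIF and 478, 395 and 444 FPKM without, with effects of -0.19 (SE 0.10, limma adjusted p = 0.256) for the knockout and -0.01 (SE 0.09) for LIF removal. The difference between the paralogs was not itself tested.

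Cox6a1, the liver form of subunit 6a, read 800, 510 and 403 FPKM with LIF and 402, 296 and 333 FPKM without. Wild type with LIF stood far above the rest. The media did not overlap, but only barely, at 403 FPKM in knockout 2 with LIF and 402 FPKM in LIF-deprived wild type. It was lower in the knockout (-0.59, SE 0.14, limma adjusted p = 0.0411) and after LIF removal (-0.68, SE 0.14, limma adjusted p = 0.0121). Cox5a, which binds on the matrix side, read 553, 366 and 358 FPKM with LIF and 325, 280 and 258 FPKM without. It was lower in both comparisons as well (-0.44, SE 0.11, limma adjusted p = 0.0418 and -0.54, SE 0.10, limma adjusted p = 0.0103), with no overlap between media. Cox7a2l, a factor that joins complexes III and IV in supercomplexes, read 242, 162 and 151 FPKM with LIF and 176, 151 and 136 FPKM without, and was lower in the knockout (-0.46, SE 0.11, limma adjusted p = 0.0409) with no overlap between genotypes. Its paralog Cox7a2 read 189, 138 and 138 FPKM with LIF and 145, 117 and 133 FPKM without, with a knockout effect of -0.33 (SE 0.11, limma adjusted p = 0.0885). Cox8a, the common form of subunit 8 (chromosome 19, 7215153 to 7217616), had the lowest p for LIF removal of all 83 genes. It read 567, 526 and 453 FPKM with LIF and 313, 216 and 308 FPKM without, and all libraries without LIF were below all with LIF (-0.90, SE 0.14, limma adjusted p = 0.00528). Cox5b, the zinc-binding subunit, read 153, 127 and 111 FPKM with LIF and 96.9, 64.6 and 89.7 FPKM without, and fell after LIF removal without overlap (-0.64, SE 0.13, limma adjusted p = 0.0142). Cox4i1, the largest nuclear-encoded subunit, read 1130, 883 and 608 FPKM with LIF and 792, 679 and 522 FPKM without. It passed in neither comparison, with limma adjusted p of 0.0929 and 0.137.

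**Figure D3:**
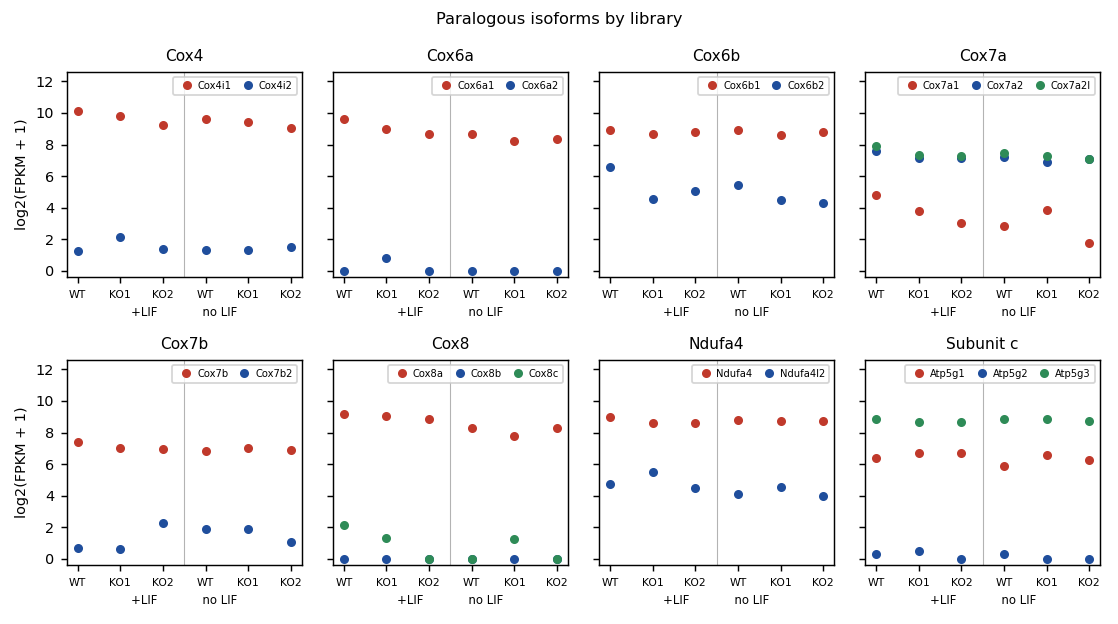
Levels of paralogous subunit genes in the 6 libraries, as log2(FPKM + 1), with 1 point per library. In most sets the common form (Cox4i1, Cox6a1, Cox6b1, Cox8a, Ndufa4, Atp5g3) lies well above its paralogs. Cox7a2 lies above Cox7a1 but below Cox7a2l in every library. Cox6b2 and Cox7a1 spread most between libraries among the genes above 2 FPKM.

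The forms typical of particular tissues were low, apart from Cox6b2. Cox4i2, the lung form, lay between 1.39 and 3.38 FPKM. Cox7a1, the heart and muscle form, read 27.1, 12.9 and 7.20 FPKM with LIF and 6.05, 13.5 and 2.41 FPKM without, a span in which the knockout libraries of 1 medium differed as much as the groups did. Cox8c, the testis form, read 3.36, 1.53 and 0 FPKM with LIF and 0, 1.37 and 0 FPKM without, Cox6a2 was listed at 0 in 5 libraries and 0.763 FPKM in knockout 1 with LIF, and Cox8b was listed at 0 in all. Cox6a2 and Cox8b were below the level for testing, and Cox4i2, Cox7a1 and Cox8c passed in neither comparison. Ndufa4, named for complex I but now counted to complex IV, read 505, 381 and 381 FPKM with LIF and 438, 416 and 415 FPKM without. Both its wild type libraries were above all knockout libraries, with a knockout effect of -0.24 (SE 0.11, limma adjusted p = 0.183). Its hypoxia-induced paralog Ndufa4l2 read 25.2, 44.2 and 21.4 FPKM with LIF and 16, 22.8 and 14.6 FPKM without, with overlap in both comparisons.

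In complex V, the F1 head, where ATP is made, and the central stalk were counted together. Of their 5 genes, 3 were lower after LIF removal, with a median of -0.39. The 9 genes of the peripheral stalk and membrane part had 1 higher gene, 0 lower and a median of -0.01. The difference between these groups of genes was not tested. Atp5d, the delta subunit of the central stalk (chromosome 10, 80138632 to 80145818), read 355, 288 and 262 FPKM with LIF and 249, 175 and 194 FPKM without. The media did not overlap and the knockout was below the wild type within each medium. The effects were -0.55 (SE 0.09, limma adjusted p = 0.00673) for LIF removal and -0.40 (SE 0.10, limma adjusted p = 0.0404) for the knockout. Atp5a1, the alpha subunit, read 733, 628 and 575 FPKM with LIF and 530, 477 and 453 FPKM without, and Atp5b, the catalytic beta subunit, read 1495, 1370 and 1205 FPKM with LIF and 1162, 959 and 982 FPKM without. Both fell after LIF removal with no overlap between media, and their effects were -0.40 (SE 0.09, limma adjusted p = 0.0178) and -0.39 (SE 0.09, limma adjusted p = 0.0223). Atp5c1, the gamma subunit, read 354, 260 and 284 FPKM with LIF and 312, 271 and 259 FPKM without, and passed in neither comparison. Atp5e, the epsilon subunit, read 162, 63.3 and 63.2 FPKM with LIF and 76.4, 74.7 and 69.9 FPKM without. The LIF-grown wild type library was far above the other 5, and the knockout effect of -0.71 (SE 0.24) had a limma adjusted p of 0.101.

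Atp5md, a small membrane subunit that joins the enzyme into dimers (chromosome 19, 47083471 to 47090647), was the only member that rose after LIF removal. It read 106, 62.2 and 74.7 FPKM with LIF and 117, 118 and 116 FPKM without. The media did not overlap, the knockout libraries with LIF were the lowest, and the effect was 0.56 (SE 0.15, limma adjusted p = 0.0299). Of its 50-base stretches, 40.6% lie in transcripts of other genes. Atp5j2, subunit f, read 559, 400 and 365 FPKM with LIF and 444, 288 and 406 FPKM without. Its knockout libraries were all below the wild type, but the effect of -0.46 (SE 0.14) missed the threshold (limma adjusted p = 0.0803). The proton-carrying subunit c is made from 3 genes with the same mature protein. Atp5g1 read 83.7, 105 and 104 FPKM with LIF and 57.4, 95.3 and 77.1 FPKM without, Atp5g3 read 467, 406 and 409 FPKM with LIF and 461, 455 and 417 FPKM without, and Atp5g2 did not exceed 0.395 FPKM. The knockout libraries were above the wild type of their medium for Atp5g1 (0.44, SE 0.12, limma adjusted p = 0.0567) and below it for Atp5g3 (-0.14, SE 0.09, limma adjusted p = 0.380), and neither passed. Atp5g2 shares all its 50-base stretches with other genes, so its low level is uncertain.

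The knockout effect differed between chromosomes. The 1009 tested genes of chromosome 11 had a median knockout effect of 0.46, and those of chromosomes 6 and 8 had medians of 0.13 and -0.19, while the other chromosomes lay between -0.09 and 0.01. All 4 members on chromosome 11, Uqcr10, Atp5g1 (0.44), Uqcrq (0.28) and Atp5h (0.06), had a positive effect, with a median of 0.36. Uqcr10 had an effect of 0.60, against the chromosome median of 0.46. The 3 members on chromosome 8, Cox4i1, Ndufa13 and Ndufb7, had a median of -0.52, but Ndufb7 had an effect of 0.3. On chromosome 6 the 4 members had a median of -0.25, opposite in sign to the 0.13 of its tested genes. Among the 72 members outside these 3 chromosomes, 0 were higher and 8 lower in the knockout, and 1 was higher and 20 lower after LIF removal, so the count of lower genes in the knockout was as large without them. In the knockout this is 11.1% lower, against 8.17% lower and 1.17% higher among all tested genes of at least 20 FPKM outside these chromosomes (median -0.10), so other genes there were mostly lower too. After LIF removal it is 27.8% lower, against 17.3% lower and 6.23% higher. The part of chromosome position in the values of the 11 members on these chromosomes was not tested.

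**Figure D4:**
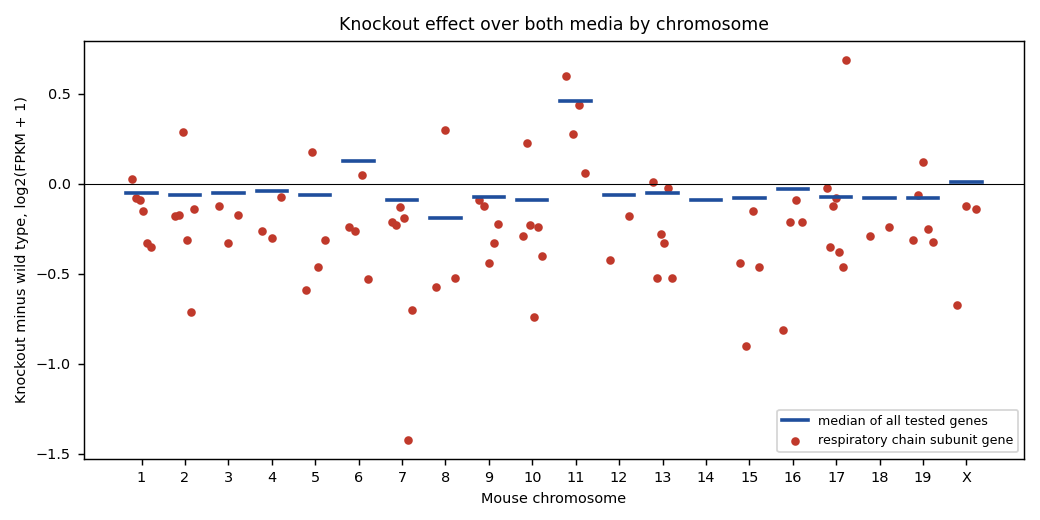
Median knockout effect over both media of all tested genes on each chromosome and of each subunit gene there, as log2(FPKM + 1) differences. Chromosome 11 stands above the others at 0.46, and its 4 subunit genes are the only group on an autosome or the X chromosome to lie wholly above 0.

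Transcript length also moved with the result. Each gene was given the length of its transcript with the longest coding sequence. The median was 751.5 bases for 80 members and 2869.5 bases for the other tested genes. Under 800 bases, 42 members had medians of -0.29 for the knockout and -0.28 for LIF removal, and 159 other genes of at least 20 FPKM outside chromosomes 6, 8 and 11 had medians of -0.22 and -0.25. The wild type library with LIF was highest for 76.2% of these members and 55.3% of these other genes, for 94.1% and 39.8% between 800 and 1200 bases, 73.3% and 41.1% between 1200 and 2000 bases, and 60.0% and 32.5% of 5 members and 1392 other genes between 2000 and 4000 bases. Between 800 and 1200 bases the medians were -0.21 and -0.26 for 17 members and -0.11 and -0.15 for 329 other genes. Between 1200 and 2000 bases they were -0.12 and -0.32 for 15 members and -0.11 and -0.14 for 757 other genes. Short transcripts of other genes were thus lower too, and the members lay below them by the most for LIF removal above 1200 bases. The part of length in the result was not tested.

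**Figure D5:**
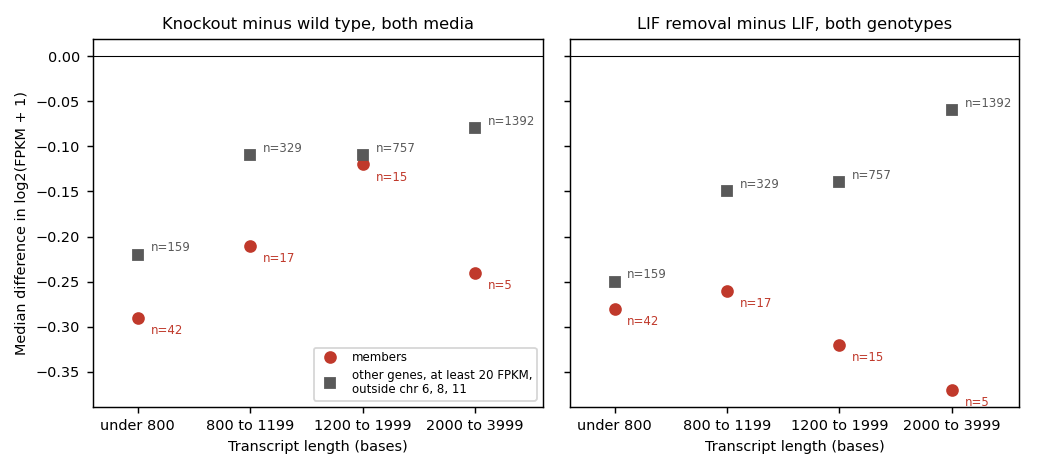
Median knockout effect and LIF removal effect by transcript length for subunit genes and for other genes of at least 20 FPKM outside chromosomes 6, 8 and 11, as log2(FPKM + 1) differences. Both kinds of gene are lowest among short transcripts in the knockout comparison, at -0.29 and -0.22 under 800 bases.

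Promoters of respiratory chain genes are known to hold sites for the factors NRF1, GABPA (also called NRF2), YY1 and the estrogen-related receptors. RefSeq promoters (GRCm38.p6, 250 bases before to 50 after the start) matched 65 members, and 28 held at least 1 of the 4 motifs on either strand. The NRF1 motif (GCGCA, then any base, then GCGC) stood in 23.1% of the members' promoters, against 5.2% of all 27025 promoters and 12% of those of 9459 tested genes. The YY1 motif AAGATGGC stood in 15.4%, against 3.2% and 5.6%, the GABPA motif CCGGAAGT in 7.7%, against 4.3% and 9.6%, and the ERR motif TCAAGGTCA in 3.1%, against 0.5% and 0.3%. A match is a description of letters and not a bound site. None of the 4 motifs contains another. Windows of 200 bases, 170 before and 30 after the start, are shown for 5 genes that fell after LIF removal and hold an NRF1 or GABPA motif, with the matches in capitals. They lie at chr5:115348929-115349128 on the minus strand (Cox6a1), chr19:7217587-7217786 on the minus strand (Cox8a), chr13:73328453-73328652 on the minus strand (Ndufs6), chr10:80406792-80406991 on the minus strand (Uqcr11) and chr9:108936478-108936677 on the plus strand (Uqcrc1).
Cox6a1: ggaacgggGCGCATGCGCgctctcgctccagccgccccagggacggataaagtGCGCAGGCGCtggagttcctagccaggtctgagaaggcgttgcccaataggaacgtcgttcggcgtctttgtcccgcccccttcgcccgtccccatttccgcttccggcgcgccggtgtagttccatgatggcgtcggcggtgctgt
Cox8a: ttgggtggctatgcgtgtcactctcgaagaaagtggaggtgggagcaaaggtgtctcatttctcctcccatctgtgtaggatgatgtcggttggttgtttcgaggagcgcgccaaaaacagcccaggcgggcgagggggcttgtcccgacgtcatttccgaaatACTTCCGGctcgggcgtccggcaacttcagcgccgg
Ndufs6: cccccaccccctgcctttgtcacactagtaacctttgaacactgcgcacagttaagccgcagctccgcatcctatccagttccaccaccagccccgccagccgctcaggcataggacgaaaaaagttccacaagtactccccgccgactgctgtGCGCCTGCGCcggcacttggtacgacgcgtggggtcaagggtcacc
Uqcr11: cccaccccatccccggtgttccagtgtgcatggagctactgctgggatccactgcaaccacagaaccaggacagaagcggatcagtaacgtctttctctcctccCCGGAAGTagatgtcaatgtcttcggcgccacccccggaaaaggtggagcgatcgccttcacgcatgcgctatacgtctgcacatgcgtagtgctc
Uqcrc1: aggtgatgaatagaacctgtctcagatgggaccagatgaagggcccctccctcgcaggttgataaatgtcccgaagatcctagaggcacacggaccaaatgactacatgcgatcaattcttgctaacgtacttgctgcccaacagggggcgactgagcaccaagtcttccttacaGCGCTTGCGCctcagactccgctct
The capitals are NRF1 matches in Cox6a1, Ndufs6 and Uqcrc1 and GABPA matches in Cox8a and Uqcr11. Ndufa6 also fell and holds an NRF1 motif, but is not shown. The other members with an NRF1 motif, not called after LIF removal, were Atp5c1, Atp5g3, Atp5h, Atp5k, Atp5o, Ndufa5, Ndufa8, Ndufa11, Ndufb4, Sdha and Sdhd. Of those with a GABPA motif, Atp5h, Ndufs3 and Uqcrh were not called. The 2 members with an ERR motif were Atp5g3 and Sdhd, with LIF removal effects of 0.06 and -0.14, and neither was called. Whether these motifs go with the LIF removal effect was not tested. Of the factors themselves, Esrra, the estrogen-related receptor alpha, read 13.9, 10.2 and 7.96 FPKM with LIF and 6.58, 3.75 and 6.18 FPKM without, and fell (-0.85, SE 0.19, limma adjusted p = 0.018) with no overlap between media. Esrrb, the related receptor that is also a pluripotency factor, was more abundant, at 193, 145 and 104 FPKM with LIF and 40.5, 52.7 and 33.1 FPKM without, and fell too (-1.77, SE 0.22, limma adjusted p = 0.0023). Nrf1, Gabpa, Yy1 and Tfam, which maintains mitochondrial DNA, passed in neither comparison, with LIF removal effects of 0.01, -0.13, 0.27 and 0.04. Ppargc1a, a coactivator of mitochondrial biogenesis, did not exceed 0.0403 FPKM. Of the 14 regulators of mitochondrial biogenesis tested, 0 were called in the knockout, against 10.5% of all tested genes. After LIF removal 1 was lower, against 12.7% of all tested genes.

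Other genes of the pathway were counted by list, and each count is to be read against 5.79% of all tested genes higher and 4.67% lower in the knockout, and 8.73% higher and 12.7% lower after LIF removal. Of 8 electron carriers and subunits outside the symbol families, Cyc1, Cyct and Etfb fell after LIF removal and Cyct was higher in the knockout. Cyct, the testis form of cytochrome c, read 1.87, 4.40 and 4.92 FPKM with LIF and 0.204, 2.04 and 2.69 FPKM without, with a knockout effect of 1.23 (SE 0.20, limma adjusted p = 0.0129). The knockout was above the wild type within each medium. Etfb, a subunit of the electron transfer flavoprotein, fell after LIF removal in both genotypes (-1.06, SE 0.11, limma adjusted p = 0.00152).

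Of 16 assembly factors for complex I, Ndufaf1 was higher in the knockout (0.70, SE 0.12, limma adjusted p = 0.0142), and Ecsit and Nubpl fell after LIF removal. Of 14 for complexes II, III and V, Atpaf2 and Tmem70, which help to build complex V, were higher in the knockout by 0.52 and 0.50, and Uqcc2, which acts on complex III, was lower (-0.58, SE 0.11, limma adjusted p = 0.0208) and also fell after LIF removal. Of 25 for complex IV, Taco1, Sco1 and Coa3 were higher in the knockout by 0.82, 0.59 and 0.55. These 3 and Atpaf2 lie on chromosome 11, whose tested genes had the median of 0.46 given above. Apopt1, which protects complex IV assembly and lies on chromosome 12, read 36.3, 7.54 and 4.87 FPKM with LIF and 26.3, 7.50 and 4.74 FPKM without. All 4 knockout libraries were far below both wild type libraries (-2.18, SE 0.22, limma adjusted p = 0.00612). Cox14 and Higd2a fell after LIF removal.

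Of 5 genes tested among the ATPase inhibitor, adenine nucleotide carriers and uncoupling proteins, Slc25a5, an ADP/ATP carrier, was lower in the knockout (-0.55, SE 0.10, limma adjusted p = 0.0168) and Atpif1, Slc25a5 and Ucp2 fell after LIF removal, with effects of -0.67, -0.67 and -0.76. Slc25a5 read 830, 598 and 550 FPKM with LIF and 527, 338 and 376 FPKM without, the same order of groups as Cox6a1. Of 14 citric acid cycle enzymes, Suclg1, Suclg2 and Ogdh were higher in the knockout by 0.87, 1.14 and 0.60 and Idh2 was lower, with an effect of -0.87. Suclg1 and Suclg2 lie on chromosome 6 and Ogdh on chromosome 11. After LIF removal 4 of them fell, among them Cs, Idh3g and Idh2. The largest difference of these 3 was that of Idh2, mitochondrial isocitrate dehydrogenase, which read 162, 68.6 and 63.4 FPKM with LIF and 47.3, 37.6 and 31.2 FPKM without (-1.20, SE 0.17, limma adjusted p = 0.00407).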

How the data were processed

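RNA-seq of total RNA was done on 6 libraries of E14 mouse ESCs, sequenced as 150 bp paired-end reads per the labels' protocols. The authors deposited 1 table of FPKM per gene symbol and library. The submitters' processing notes name STAR, Cufflinks and the build mm10, while their versions, their settings, the annotation and any use of strand were not given by any source used here. FPKM carries no read count, so the depth behind a value is unknown and no counting interval is given, and short transcripts have fewer fragments per FPKM.

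From these values log2(FPKM + 1) was computed without further scaling, which understates changes of low genes. The 11785 genes averaging at least 1 FPKM were tested with limma 3.58.1 in R 4.3.3 (intensity trend, two-sided, Benjamini-Hochberg over all of them, threshold 0.05), with genotype and medium as added terms (3 residual and 5.08 prior degrees of freedom) or with 4 groups (2 and 4.7), where each lone wild type library is assumed to vary like the knockout libraries. LIF removal in wild type cells was counted where the log2 difference reached 1 in either direction. Positions came from GENCODE M21 and RefSeq, which placed 25089 of 25170 symbols. The fits were tested on simulated data. The members, gene lists and tests were chosen with earlier results of these data known.

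Named genes were Hnrnpf, up to 4 per complex with the lowest p in each of the 2 comparisons over all libraries, the paralogous isoforms and the 4 SDH genes, and the called genes of each list. Genes named outside this rule (Ndufa9, Ndufb4, Ndufs1, Ndufs4, Atp5e and the transcription factors that passed no test among them) were chosen after their values were seen. A few genes chosen this way are not reported here. Alternatives were a pseudocount of 0.1, no filter or a mean of at least 5 FPKM, quantile normalization, median ratio scaling, no intensity trend, a replicate block and leaving out each library.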

Additional observations from a re-analysis of the deposited data

How the results depend on the processing

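Counts of called subunit genes depended on the settings. With quantile normalization the balance of higher and lower genes changed too, as given above. The knockout effect over both media was called for 9 genes, and for 1 with no filter on low values, 5 with quantile normalization, 2 without the intensity trend, and between 0 and 8 with 1 library left out. The LIF removal effect over both genotypes was called for 23 genes, and for 13 with no filter, 14 without the trend, and between 4 and 21 with 1 library left out. LIF removal in knockout cells was called for 4 genes, and for 0 with no filter, 1 with quantile normalization, 0 without the trend, and between 0 and 7 with 1 library left out. LIF removal in wild type cells, with no test, passed the size for 7 genes and for 3 with a mean of at least 5 FPKM. Ndufb4, Cox7b2, Cox7c-ps1 and Cox8c, among the 7, had means under that level, at 2.28, 1.91, 4.07 and 1.04 FPKM. Why the other counts changed was not tested. The single-medium knockout effects and the difference of responses gave 0 calls under every setting that could be fitted, and without a wild type library its own medium's knockout effect could not be fitted. No called gene changed sign in any alternative.

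The numbers of the knockout libraries were used as pairs in a replicate block, which called 36 genes for LIF removal over both genotypes (2 higher, 34 lower), 21 within knockout cells (3 higher, 18 lower) and 0 for the difference of responses. The shares were 43.4% and 25.3% of the subunits, against 29.8% and 22.2% of all tested genes called under the same block. Deviations of same-numbered knockout libraries from their group means correlated across tested genes (r = 0.366), but 2 pairs do not show that the numbers pair the samples. Without read counts, depth limits low genes most, and a miss there does not show that a level was the same.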
